A study of Mus musculus with 6 samples.

Results

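The 10 genes described here are components of the Notch pathway measured in the aorta of mouse fetuses. They comprise 3 receptors (Notch1, Notch3 and Notch4), 3 ligands (Jag1, Jag2 and Dll4) and 4 target genes (Hey1, Hey2, Heyl and Hes1). They were chosen by gene name, as every non-control probe of the array that carries one of these names. This gave 11 of 55681 non-control probes, and 10 of the 34797 names on the array. The tissue was the aortic artery of C57BL/6 fetuses at E18.5, late gestation, hybridised to 1-colour Cy3 Agilent expression arrays. Each dam was Nod1 -/- and each sire Nod1 +/-, so the fetuses were either Nod1 -/- (3 arrays) or Nod1 +/- (3 arrays). The dams of both groups received 500 µg of FK565, a synthetic NOD1 ligand, under the skin, and vessels were collected 6 h later. Both groups therefore share a Nod1-deficient mother and the ligand, no wild-type fetus or ligand-free dam was analysed here, and the series asks how fetal vessels respond directly to a NOD1 ligand. The labels call the fetuses littermates but do not say whether an array held a single fetus, so the p-values reflect only how far these samples differ among themselves, and the number of arrays limits the precision.

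Notch receptors are cell-surface proteins that are cut when a Jagged or Delta-like ligand on a neighbouring cell binds them. The freed intracellular part enters the nucleus, joins the DNA-binding protein RBPJ and switches on targets, among them the HES and HEY families of basic helix-loop-helix repressors. In arteries, Notch1, Notch4 and Dll4 are known from the endothelium, where Notch signalling and the HEY genes take part in arterial identity. Notch3 is the receptor best known from vascular smooth muscle, which also responds to Jag1 on endothelial cells.

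The sequences behind the results are those of the array's probes, each 60 bases long. The first 30 bases of 4 probes are shown, because these 4 genes passed the test between genotypes and each was read by a single probe. Hey1 was read on chromosome 3 at 8663432 to 8663491, minus strand. The Hey2 probe lies on chromosome 10 at 30552729 to 30552788, minus strand. Heyl was read on chromosome 4 at 122926975 to 122927034, plus strand, and Notch4 on chromosome 17 at 34725120 to 34725179, plus strand, all in mm9 coordinates.
Hey1: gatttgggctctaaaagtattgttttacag
Hey2: ccagaggctcattgacaccaactcaaaaac
Heyl: aatcattttcttcaaggtctttgcccttct
Notch4: gttgatttcgagaatccctaaactctggaa

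Over the 55 pairs of the 11 probes, the longest identical stretch was 11 bases, so the HEY probes share no long sequence. GC content ran between 26.7% for the Hes1 probe and 55.0%. The other members were read on chromosome 2 (Notch1, 26319440 to 26319499; Jag1, 136907433 to 136907492; Dll4, 119160779 to 119160838), chromosome 17 (Notch3, 32257848 to 32257907), chromosome 12 (Jag2, 114146887 to 114146946) and chromosome 16 (Hes1, 30067820 to 30067879). A second Notch1 probe, at 26314630 to 26314689 of chromosome 2, was well above background on 2 of 6 arrays and was not tested. The accessions of all 11 probes match the same symbols in RefSeq. No mm9 exon annotation was used, so the place of a probe within its gene is not given.

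RefSeq promoter windows were at hand for 7 of the 10 genes (Notch1, Notch3, Notch4, Jag1, Jag2, Dll4 and Hey2). The windows of Hey2 and Notch4 are shown because both genes were higher in Nod1 -/- aortas. Each covers 250 bases before and 30 bases from the RefSeq transcript start, in GRCm38.p6 and in the direction of the gene: chr10:30842754-30843033 on the minus strand for Hey2 and chr17:34564045-34564324 on the plus strand for Notch4. Capitals mark the letters TGGGAA, the core of the RBPJ motif, on either strand.
Hey2: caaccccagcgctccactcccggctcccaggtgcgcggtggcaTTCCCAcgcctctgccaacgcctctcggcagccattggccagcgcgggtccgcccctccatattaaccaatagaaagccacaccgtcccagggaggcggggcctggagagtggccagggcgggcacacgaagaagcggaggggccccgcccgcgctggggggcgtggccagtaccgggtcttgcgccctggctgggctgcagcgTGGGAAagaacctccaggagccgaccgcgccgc
Notch4: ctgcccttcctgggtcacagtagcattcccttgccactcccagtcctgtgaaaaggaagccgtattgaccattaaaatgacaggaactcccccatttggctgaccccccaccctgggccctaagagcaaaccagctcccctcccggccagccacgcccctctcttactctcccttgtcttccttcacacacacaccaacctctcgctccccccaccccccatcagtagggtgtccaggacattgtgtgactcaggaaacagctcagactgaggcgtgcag

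Motifs were searched on both strands of the full windows, which hold 250 bases before and 50 after the start. The RBPJ core TGGGAA was found in the Hey2 window and in none of the other 6, at position -207 from the start on the minus strand and at position -3 on the plus strand. Both matches are also matches to the longer form GTGGGAA, which contains the core. Of 32851 promoter windows, 25.6% hold TGGGAA and 6.38% hold GTGGGAA. The E-box CACGTG, a site that HEY and HES repressors can bind, was in 0 of the 7 windows and in 7.15% of all. The N-box CACNAG was in 3 of 7 (Notch1, Dll4 and Notch3) and in 42.5% of all. A match describes letters and is not a binding site.

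Values are log2 signals minus the array's 75th percentile, so 0 is the level of that percentile, and levels of different probes are not set against each other. Differences are Nod1 -/- minus Nod1 +/-. A gene is said to be higher, lower or changed where limma's p-value, adjusted over all 21477 genes tested, was below 0.05. All 10 genes passed the filter on dim probes, and 10 of the 11 probes were well above background on all 6 arrays. Signal was well above background for 53.7% to 58.4% of probes on Nod1 -/- arrays and 48.6% to 54.7% on Nod1 +/- arrays. Xist, a transcript of female cells, read 1.35 and 1.49 on Nod1 +/- replicates 1 and 3, and 1.08 on Nod1 -/- replicate 1. It was not well above background on Nod1 +/- replicate 2 (-6.45) or on Nod1 -/- replicates 2 and 3 (-6.90 and -6.24). The genotypes were therefore not balanced in this signal. A pair of arrays stood apart in markers of other tissues. Skeletal muscle genes averaged 4.97 on Nod1 +/- replicate 1, against 0.24 to 0.80 on the other 5 arrays, and Schwann cell and neuron genes averaged 2.12 on Nod1 -/- replicate 1, against -1.03 to 0.77 on the other 5. The Nod1 probe itself differed by -0.13 (95% confidence interval -0.59 to 0.32), and since the deleted part of Nod1 is not stated, it does not check the labels.

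Of the 10 Notch genes, 4 were higher and 0 lower in Nod1 -/- aortas, against 11.0% higher and 7.66% lower among all genes tested (18.7% changed in either direction). The 4 were the 3 HEY genes and Notch4. The median difference of the 10 genes was 0.45, against 0.10 for all genes. Scaling each array by its median in place of its 75th percentile moved that median of all genes to -0.01 and turned the split of changed genes to 924 higher and 1600.0 lower, against 2369 higher and 1646 lower as reported. The arrays of the genotypes did not overlap for 5 of the 10 genes (42.4% of all genes).

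**Figure D1:**
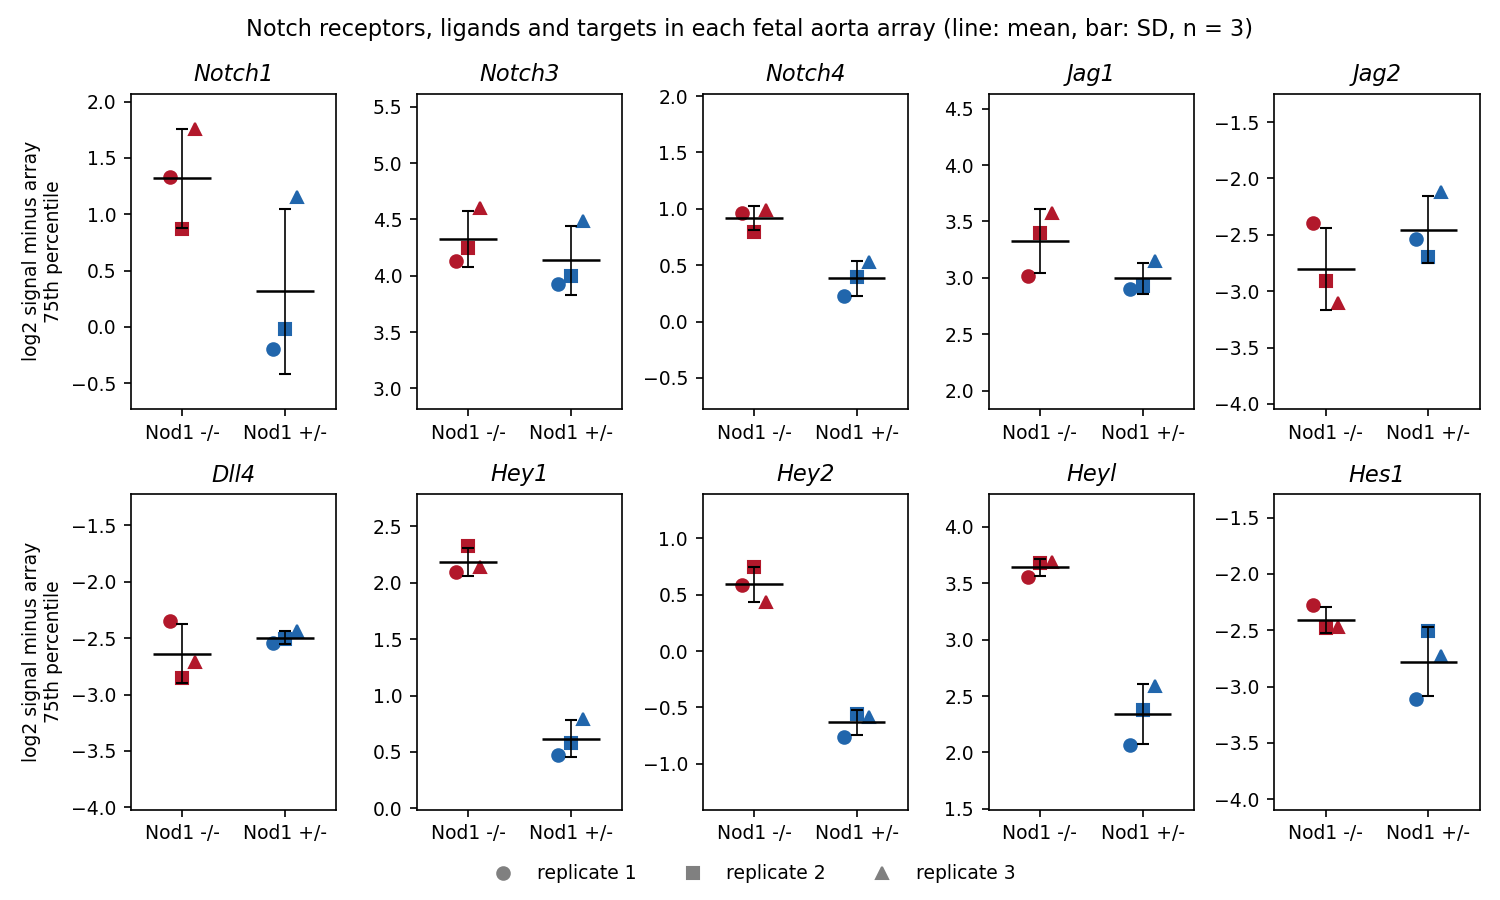
Log2 signal minus the array's 75th percentile (vertical axis) of the 10 genes on each array, with Nod1 -/- aortas in red and Nod1 +/- aortas in blue, and with mean and SD (n = 3). The genotypes lie far apart for Hey1, Hey2 and Heyl, whose gaps between the closest arrays were 1.30, 0.998 and 0.959, and overlap for Notch1, Notch3, Jag1, Jag2 and Dll4.

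The HEY genes held the 3 largest differences among the 10. Hey1 is a repressor induced by Notch in endothelial and mural cells. Its values were 2.09, 2.32 and 2.14 on the 3 Nod1 -/- arrays, against 0.47, 0.58 and 0.80 on the 3 Nod1 +/- arrays. Every Nod1 -/- array lay above every Nod1 +/- array, and the closest pair was 1.30 apart. The means were 2.18 ± 0.12 in Nod1 -/- and 0.62 ± 0.16 in Nod1 +/- aortas (SD, n = 3 each). Hey1 was 2.96-fold higher in Nod1 -/- aortas (95% confidence interval 2.40 to 3.66), a log2 difference of 1.57 with a standard error of 0.13 (limma adjusted p = 0.00156). Of all genes tested, 260 (1.21%) had a more positive difference.

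Hey2, a HEY repressor known for its part in arterial fate and in heart and vessel development, had values of 0.59, 0.74 and 0.44 in Nod1 -/- aortas, against -0.76, -0.56 and -0.58 in Nod1 +/- aortas. All Nod1 -/- values lay above the level of the 75th percentile and all Nod1 +/- values below it. The means were 0.59 ± 0.15 in Nod1 -/- and -0.63 ± 0.11 in Nod1 +/- aortas. Hey2 was 2.34-fold higher in Nod1 -/- aortas (95% confidence interval 1.91 to 2.86), a log2 difference of 1.22 with a standard error of 0.12 (limma adjusted p = 0.00263). Among the members with a promoter window, Hey2 alone held the RBPJ core. No window was at hand for Hey1, Heyl or Hes1, so Hey2 was the only target gene searched. The average Hey2 signal was 630.2 units on Nod1 -/- and 264 on Nod1 +/- arrays.

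Heyl, the HEY gene known from vascular smooth muscle and downstream of Notch3, had values of 3.55, 3.68 and 3.69 in Nod1 -/- aortas, against 2.07, 2.37 and 2.59 in Nod1 +/- aortas. The Nod1 -/- arrays lay within 0.14 of each other, while the Nod1 +/- arrays spanned 0.53, with replicate 1 lowest. The means were 3.64 ± 0.08 in Nod1 -/- and 2.34 ± 0.27 in Nod1 +/- aortas. Heyl was 2.46-fold higher in Nod1 -/- aortas (95% confidence interval 1.90 to 3.18), a log2 difference of 1.30 with a standard error of 0.15 (limma adjusted p = 0.00463). In bulk tissue of this kind, fewer cells of a type and less RNA per cell cannot be told apart.

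Without Nod1 +/- replicate 1, the array with the high skeletal muscle signal, the HEY differences were 1.50 for Hey1, 1.16 for Hey2 and 1.16 for Heyl, with adjusted p-values of 0.00821, 0.0137 and 0.0123. Without Nod1 -/- replicate 1, the array with the high nerve signal, they were 1.61, 1.23 and 1.34, with adjusted p-values of 0.00798, 0.0144 and 0.0185. Slide row separates Nod1 -/- replicates 1 and 2 from the other 4 arrays. With it as a block, the genotype difference is that of Nod1 -/- replicate 3 against the 3 Nod1 +/- arrays. These differences were 1.52, 1.07 and 1.35. Hey1 and Heyl passed the threshold in all 19 other settings tried, with differences of 1.46 to 1.66 and 1.16 to 1.42. Hey2 passed it in 18 of 19 and missed it without the first replicate of both genotypes (difference 1.16, adjusted p = 0.0522).

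**Figure D2:**
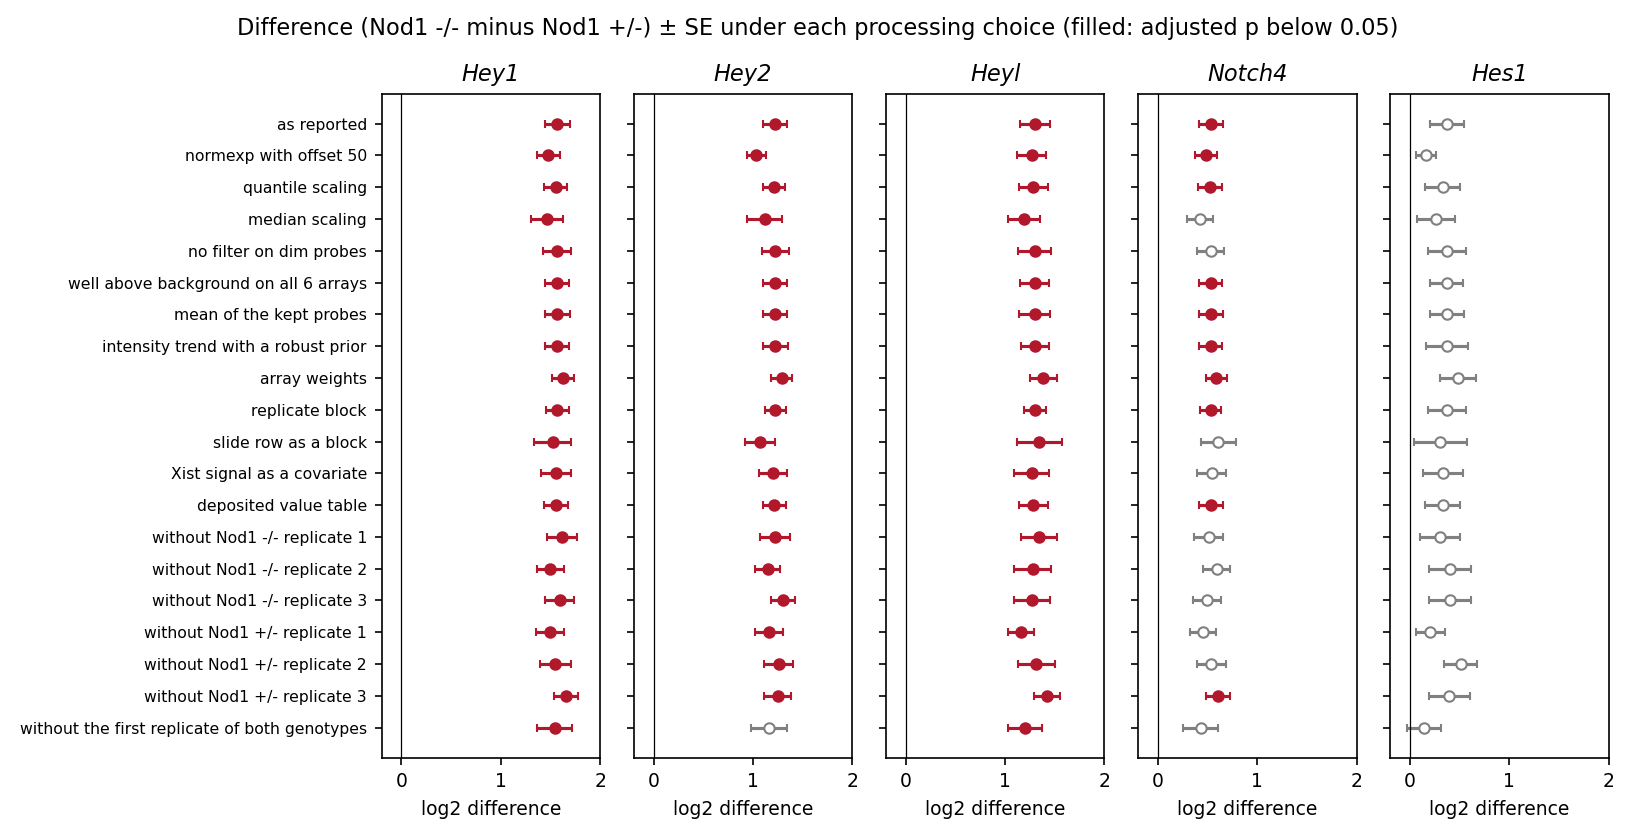
Difference in log2 signal (horizontal axis, Nod1 -/- minus Nod1 +/-) with its standard error for Hey1, Hey2, Heyl, Notch4 and Hes1, as reported and under each of 19 other settings; filled points have an adjusted p below 0.05. The HEY points lie between 1.03 and 1.66 in every setting shown, Notch4 between 0.42 and 0.61, and Hes1 between 0.14 and 0.51 with no filled point.

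Hes1, the HES repressor that many tissues use as a Notch target, did not pass the test. Its values were -2.27, -2.48 and -2.47 in Nod1 -/- aortas, against -3.11, -2.50 and -2.73 in Nod1 +/- aortas. The genotypes did not overlap, but by a gap of 0.02, and Nod1 +/- replicate 1 lay well below the other arrays. The log2 difference was 0.37 (95% confidence interval -0.05 to 0.79, limma adjusted p = 0.183), or 0.21 without that array. The upper end of this interval, 0.79, lies below the lowest bound of the HEY genes, 0.93 for Heyl, although the difference between the genes was not tested. The Hes1 probe was dim, with an average signal of 78.2 units on Nod1 -/- and 60.5 on Nod1 +/- arrays, against a lowest signal well above background of 15.2 to 31.9 units per array.

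Among the receptors, Notch4 was higher in Nod1 -/- aortas. Notch4, a receptor largely restricted to endothelial cells, had values of 0.96, 0.79 and 0.99 in Nod1 -/- aortas, against 0.22, 0.40 and 0.53 in Nod1 +/- aortas. The genotypes did not overlap, with a gap of 0.26 between the closest arrays, and the means were 0.92 ± 0.11 in Nod1 -/- and 0.38 ± 0.15 in Nod1 +/- aortas. The difference of 0.53 (standard error 0.12) corresponds to 1.45-fold (95% confidence interval 1.18 to 1.77, limma adjusted p = 0.0312). It is less firm than the HEY differences, since it passed in 9 of 19 other settings, with a range of 0.42 to 0.61. The adjusted p was 0.0906 without Nod1 +/- replicate 1, 0.0846 without Nod1 +/- replicate 2, and 0.101, 0.0675 and 0.0751 without Nod1 -/- replicates 1, 2 and 3. Notch4 still passed without Nod1 +/- replicate 3 (difference 0.61, adjusted p = 0.0331). The adjusted p of Notch4 was 0.0801 with median scaling and 0.123 when blocking on slide row. With Xist signal as a covariate it was 0.075, with no filter on dim probes 0.098, and without both first replicates 0.242.

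Notch1, the receptor needed for arterial development, varied most among the 10 genes within both genotypes. Its values were 1.33, 0.87 and 1.75 in Nod1 -/- aortas, against -0.19, -0.02 and 1.16 in Nod1 +/- aortas. Nod1 +/- replicate 3 lay above the lowest Nod1 -/- array, so the genotypes overlapped. The means were 1.32 ± 0.44 in Nod1 -/- and 0.32 ± 0.73 in Nod1 +/- aortas, and the difference of 1.0 had a 95% confidence interval of 0.02 to 1.99 (limma adjusted p = 0.136). Without Nod1 +/- replicate 3 the difference was 1.42 and passed (adjusted p = 0.0313), as it did with array weights (1.21, adjusted p = 0.0335). It missed the threshold in the other 17 settings.

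Notch3, the smooth muscle receptor, had values of 4.13, 4.25 and 4.60 in Nod1 -/- aortas, against 3.93, 4.0 and 4.49 in Nod1 +/- aortas. The genotypes overlapped widely. The difference was 0.19 (95% confidence interval -0.30 to 0.67, limma adjusted p = 0.531), and it passed in none of the settings. The interval excludes a difference of the size fitted for any of the HEY genes. Replicate 3 was the highest array of both genotypes for Notch1, Notch3, Notch4, Jag1 and Heyl.

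None of the 3 ligands changed. Jag1, the ligand of endothelial and smooth muscle cells, had values of 3.01, 3.40 and 3.57 in Nod1 -/- aortas, against 2.90, 2.92 and 3.15 in Nod1 +/- aortas. The lowest Nod1 -/- array fell among the Nod1 +/- arrays, and the difference was 0.33 (95% confidence interval -0.08 to 0.75, limma adjusted p = 0.209). Jag2 was lower on 2 of 3 Nod1 -/- arrays than on any Nod1 +/- array, at -2.40, -2.91 and -3.11 in Nod1 -/- against -2.54, -2.70 and -2.12 in Nod1 +/- aortas. Its difference was -0.35 (95% confidence interval -0.92 to 0.22, limma adjusted p = 0.325). Dll4, the Delta-like ligand of arterial endothelium, lay at -2.35, -2.85 and -2.71 in Nod1 -/- and -2.55, -2.51 and -2.43 in Nod1 +/- aortas. The Nod1 -/- values lay on both sides of the Nod1 +/- values, and the difference was -0.14 (95% confidence interval -0.50 to 0.22, limma adjusted p = 0.533). The Jag2 and Dll4 probes were dim, averaging 60.4 and 67.2 units on Nod1 -/- and 74.8 and 72.3 units on Nod1 +/- arrays, and none of the ligands passed in any of the 19 other settings.

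**Figure D3:**
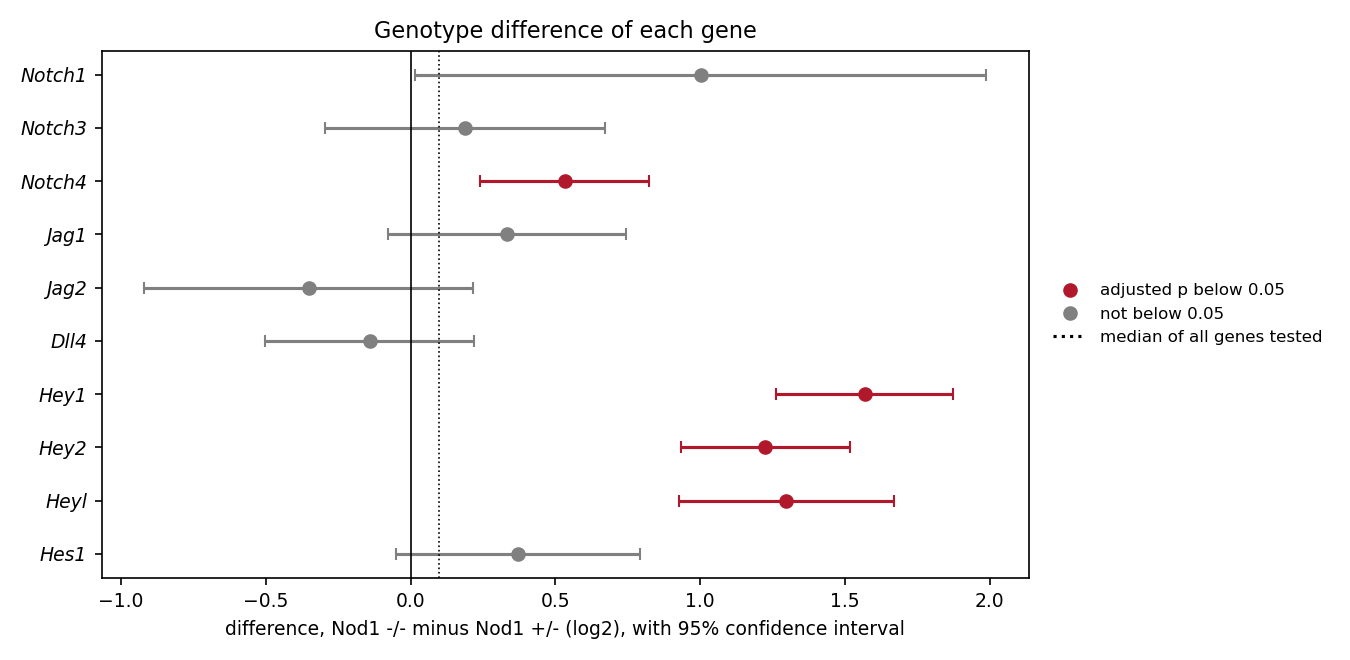
Difference in log2 signal of each of the 10 genes (horizontal axis, Nod1 -/- minus Nod1 +/-) with its 95% confidence interval; red marks an adjusted p below 0.05 and the dotted line is the median of all genes tested, 0.10. The intervals of Hey1, Hey2 and Heyl start at 0.93 or higher, that of Notch4 starts at 0.24, and those of Notch3, Jag1, Jag2, Dll4 and Hes1 include 0.

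The rest of the pathway was read from 5 lists of 61 genes, 58 of which were tested. Of these, 5 were higher and 6 lower in Nod1 -/- aortas, with a median difference of 0.03 against 0.10 for all genes. Over all genes tested, 11.0% were higher and 7.66% lower, or 18.7% in either direction. The count of changed pathway genes was near that share. Among the other receptors and ligands 1 of 6 was higher and 0 lower. This was Dner, an atypical Notch ligand known from neurons, at -2.09, -1.91 and -2.34 in Nod1 -/- aortas, against -3.98, -3.94 and -3.91 in Nod1 +/- aortas. The genotypes lay far apart, and the difference was 1.83 (standard error 0.13, limma adjusted p = 0.00117). On 1 of the 3 Nod1 +/- arrays, however, the Dner signal was not well above background. Dner passed in the 18 other settings that kept it, between 0.77 and 1.94. The Schwann cell and neuron genes, which share that tissue, are given with the other markers further on, and their part in the Dner result was not tested.

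Of the genes that process receptors or internalise ligands, 2 of 18 were higher and 2 lower (median 0.02). Aph1b, a subunit of the gamma-secretase that cuts Notch, was higher by 1.65 (limma adjusted p = 0.00117), with values of 1.18, 1.29 and 0.95 in Nod1 -/- aortas against -0.48, -0.48 and -0.58 in Nod1 +/- aortas. Its second probe gave 1.71, and since Aph1c is a near-identical copy, the source of this signal is uncertain. Psen2, a catalytic presenilin of the same enzyme, fell by 1.14 (adjusted p = 0.00252), at 1.59, 1.48 and 1.46 in Nod1 -/- aortas against 2.49, 2.69 and 2.76 in Nod1 +/- aortas. Both genes passed in all 19 other settings. Mfng, a glycosyltransferase that tunes the receptors' choice of ligand, was higher by 0.68 (adjusted p = 0.0290), and Mib1, the ubiquitin ligase that drives ligand uptake, fell by 0.56 (adjusted p = 0.0152). Mfng passed in 10 of 19 other settings and Mib1 in 12. Without Nod1 +/- replicate 1 the adjusted p was 0.0879 for Mfng and 0.0565 for Mib1, and without Nod1 -/- replicate 1 it was 0.0803 for Mfng and 0.0618 for Mib1. Leaving out Nod1 +/- replicate 2 or Nod1 -/- replicate 2 ended both calls too, with adjusted p-values of 0.0876 and 0.0897 for Mfng and 0.0525 and 0.0640 for Mib1.

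In the nuclear complex 1 of 17 genes was higher and 1 lower (median 0.06). Hdac1, a histone deacetylase of the corepressor side, was higher by 0.48 (limma adjusted p = 0.0297), and Kat2a, a histone acetyltransferase, fell by 0.72 (adjusted p = 0.0220). Hdac1 passed in 8 of 19 other settings, and leaving out any array other than Nod1 -/- replicate 3 ended its call, with an adjusted p between 0.0508 and 0.104. Kat2a passed in 11, and its adjusted p was 0.0530 without Nod1 +/- replicate 1 and 0.0636, 0.0850 and 0.0542 without Nod1 -/- replicates 1, 2 and 3. For Rbpj itself, named outside the naming rule because it is the pathway's DNA-binding factor, the probe used gave 0.29 (adjusted p = 0.0762) and a second probe -0.51, so its probes disagree in sign. Ncor1, also outside that rule, had a probe at 0.55, with an adjusted p of 0.0322 over all probes. The Ncor1 probe used gave -0.18, and its further probes -0.10 and -0.15.

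Among modulators and turnover genes 1 of 14 was higher and 3 were lower (median -0.19). Dtx4, a Deltex ubiquitin ligase that acts on Notch, fell by 1.15 (limma adjusted p = 0.00201), with values of 1.81, 1.68 and 1.88 in Nod1 -/- aortas against 2.88, 2.93 and 3.03 in Nod1 +/- aortas. Nle1, known as a Notch modifier in flies and as a ribosome assembly factor, fell by 0.92 (adjusted p = 0.00472). Dtx4 passed in all 19 other settings and Nle1 in 18. Dtx3l, a Deltex relative that is also interferon-inducible, fell by 0.90 (adjusted p = 0.0268) and passed in 13, and its adjusted p was 0.0795 without Nod1 +/- replicate 1, 0.0623 without Nod1 +/- replicate 3 and 0.0799 without Nod1 -/- replicate 2. Nedd4, a ubiquitin ligase, was higher by 0.44 (adjusted p = 0.0416) and passed in 8, and leaving out any 1 array ended its call, with an adjusted p of 0.0566 to 0.131. Of the other HES genes, 0 of 3 tested changed. Hes6 had the smallest p of these, with a difference of 0.41 (adjusted p = 0.0736), and Hes3 and Hes5 did not pass the filter on dim probes.

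Genes of arterial identity, some of which Notch is known to control, were read next. Of 12 tested, 3 were higher, 0 lower and 9 not changed in Nod1 -/- aortas (median 0.34). Over all genes tested, 11.0% were higher and 7.66% lower (median 0.10). Bmx, a tyrosine kinase of arterial endothelium, had values of 2.57, 2.80 and 2.41 in Nod1 -/- aortas against 1.0, 1.17 and 1.03 in Nod1 +/- aortas, a difference of 1.53 (limma adjusted p = 0.00185) that passed in all 19 other settings. The gap junction genes Gja5 and Gja4 were higher by 0.54 (adjusted p = 0.0155) and 0.58 (adjusted p = 0.0242), and passed in 11 and 9 settings. Without Nod1 +/- replicate 1, 1 of the 12 was higher, and 2 were without Nod1 -/- replicate 1. The count was also 1 with median scaling, when blocking on slide row, and without replicate 2 of either genotype. Of 4 venous genes 0 changed (median -0.20). Ephb4, a receptor of venous endothelium, had the smallest p of these at -0.72 (adjusted p = 0.130). A second Ephb4 probe gave -0.61, with an adjusted p of 0.0477 over all probes.

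**Figure D4:**
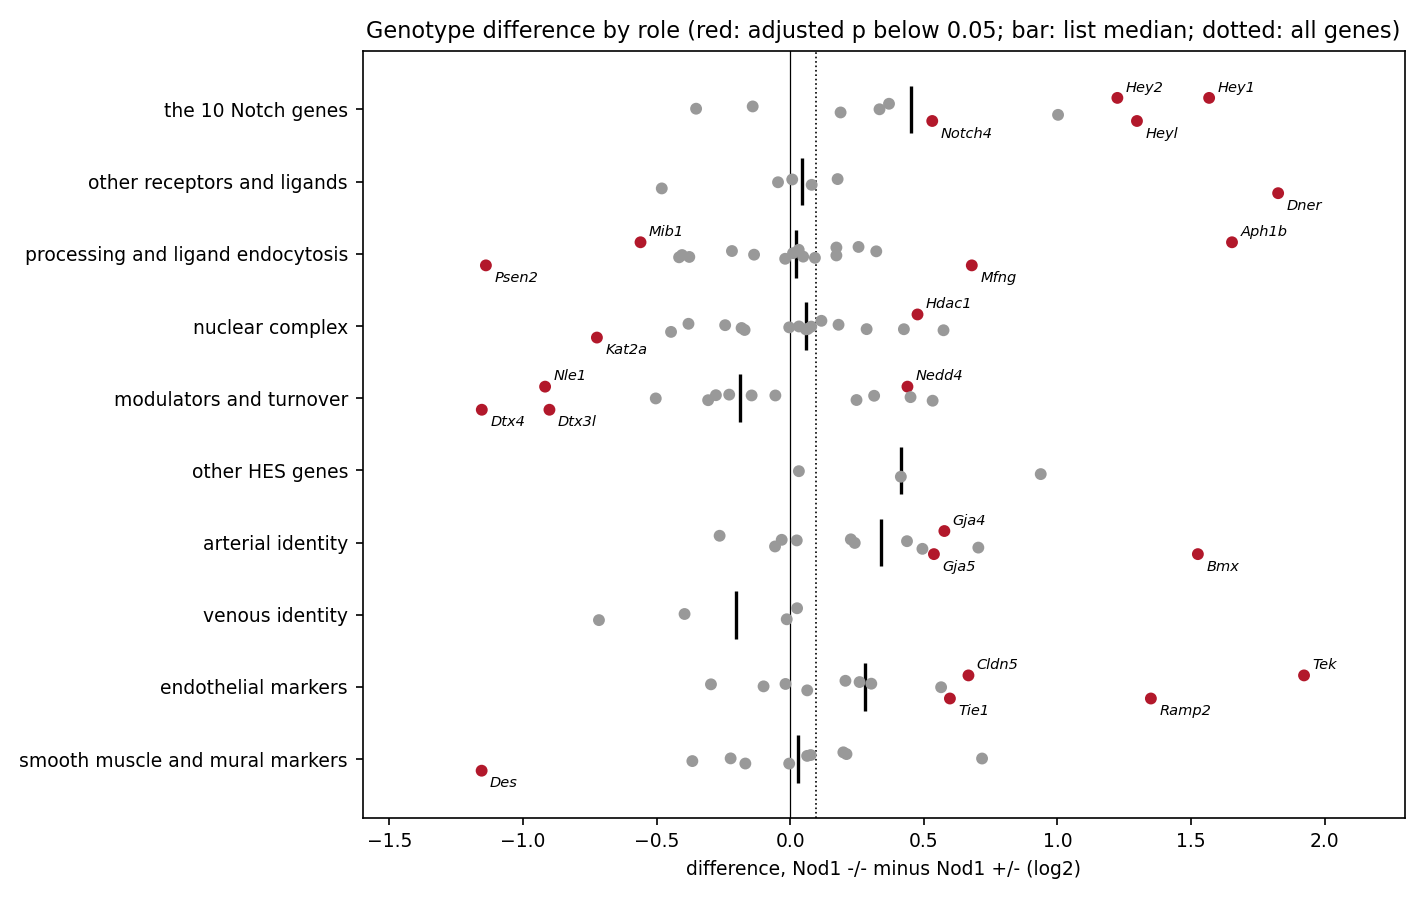
Difference in log2 signal (horizontal axis, Nod1 -/- minus Nod1 +/-) of each tested gene, by list; red points have an adjusted p below 0.05, short bars are list medians and the dotted line is the median of all genes, 0.10. Among the 10 Notch genes the red points, from 0.53 to 1.57, all lie to the right of 0, while the lists of processing, nuclear complex and modulator genes hold red points on both sides of it.

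Markers of the cell types an aorta holds were read beside these results. The shares over all genes tested were 11.0% higher and 7.66% lower, with a median difference of 0.10. Of 12 endothelial markers, all well above background on every array, 4 were higher and 0 lower in Nod1 -/- aortas (median 0.28), and their summed level ran from 175 to 199 times the array's 75th percentile on Nod1 -/- arrays and from 123 to 161 on Nod1 +/- arrays. Most of that gap lay in the bright Ramp2 probe, and without it the sums overlapped, at 115 to 128 on Nod1 -/- and 101 to 133 on Nod1 +/- arrays. The 4 were the angiopoietin receptor Tek (1.92), the receptor partner Ramp2 (1.35), the tight junction gene Cldn5 (0.67) and the receptor Tie1 (0.60). Tek and Ramp2 passed in all 19 other settings, Cldn5 in 8 and Tie1 in 9, and 2 of the 12 were higher without Nod1 +/- replicate 1 or without any 1 of the Nod1 -/- arrays. The defining genes Pecam1, Cdh5 and Kdr had differences of 0.26, -0.30 and -0.02, with adjusted p-values of 0.434, 0.0764 and 0.927. The part of endothelial RNA in the HEY and Notch4 results was not tested.

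Of 10 smooth muscle and mural markers, also well above background everywhere, 0 were higher and 1 (Des, -1.15) was lower, with a median of 0.03. Their summed level was 1091 to 1168 on Nod1 -/- arrays and 1070.4 to 1140.0 on Nod1 +/- arrays. Without Nod1 +/- replicate 1, or with either replicate 2 left out, 0 of them were lower, while without Nod1 -/- replicate 1 there was 1 higher and 0 lower. Acta2 and Myh11, which define contractile smooth muscle, had differences of -0.0035 and -0.22.

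Markers of further cell types were read in the same way, beside the same shares over all genes tested (11.0% higher and 7.66% lower). Of 10 neutrophil markers 7 were lower and 0 higher in Nod1 -/- aortas (median -3.08). Of these 7, Mmp9 and Cxcr2 did not stand well above background in Nod1 -/- aortas and passed the filter through the Nod1 +/- arrays, and over the 8 markers well above background on all 6 arrays 5 were lower (median -2.57). The summed level was 157 to 213 on Nod1 -/- and 273 to 292 on Nod1 +/- arrays. Csf3r, which did not pass the test (difference 0.44), carried most of the Nod1 -/- sum, and without it the sums were 16.4 to 22.1 on Nod1 -/- and 125 to 203 on Nod1 +/- arrays. Of 8 fibroblast markers 4 were higher (median 0.42), with sums of 1231 to 1299.7 on Nod1 -/- and 1031 to 1045 on Nod1 +/- arrays. The fibroblast count was 2 without Nod1 -/- replicate 1 or 2 and 0 when blocking on slide row or without both first replicates. Of 9 Schwann cell and neuron markers 2 were higher (median 1.76), with sums of 14.3 to 53.5 on Nod1 -/- and 5.92 to 15.0 on Nod1 +/- arrays. The Schwann cell and neuron count was 1 when blocking on slide row, 3 without Nod1 +/- replicate 1, and 7 with the replicate number as a block. Of 8 epithelial markers listed, 4 passed the filter on dim probes, and Epcam and Cdh1 did not. Of these 4, 3 were higher (sums 8.98 to 10.2 on Nod1 -/- and 4.15 to 7.15 on Nod1 +/- arrays), while Krt8 differed by -0.63 and did not pass. Of the 3 that were well above background on all 6 arrays, 2 were higher. None of the 4 passed when blocking on slide row, and 1 did without both first replicates. Macrophage markers were higher in 2 and lower in 1 of 10, with 3 higher without Nod1 -/- replicate 3 and 1 higher without any other single array. Of the rest, 0 of 5 thymocyte and 0 of 8 skeletal muscle markers tested changed, with 10 listed for each. The sums for skeletal muscle ran from 25.1 to 43.4 on Nod1 -/- and from 30.7 to 595.0 on Nod1 +/- arrays. Their part in the results on the Notch genes was not tested.

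Genes most like Hey1 over the 6 arrays were found by the root mean square difference of mean-centred log2 values. Among the 5 most alike were Kazald1 (0.076), the transcript ENSMUST00000137136 (0.086), 8430419K02Rik (0.096) and Fmo5, a flavin-containing monooxygenase (0.097). Their genotype differences ran from 1.39 for Fmo5 to 1.63 for 8430419K02Rik, on both sides of the 1.57 of Hey1. This likeness is a description over 6 arrays, on which all of these genes share a genotype difference.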

How the data were processed

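RNA of fetal aortas was hybridised to 6 1-colour arrays (3 Nod1 -/-, 3 Nod1 +/-), and the number of fetuses per array is not stated. The deposited scanner files hold linear, background-subtracted spot intensity. Per the file headers it was made with Agilent Feature Extraction 10.7.1.1, while 9.5.1.1 stands in the submitters' processing notes. Probe positions are mm9, and the 6 arrays share a slide and a scan. The authors' deposited values of the whole series, also intensity, served as an alternative. Their scaling is not stated, and the median of the first column (Nod1 +/- replicate 1) was 33.4. Sorted columns differed by at most 22.5 units. The count of changed genes was close to that with quantile scaling (4051 against 4076).

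Control and outlier spots were left out, no spot was saturated, and log2 processed signals were reduced by the array's 75th percentile. Of 55681 probes, 134 lacked a usable spot, and 30165 were kept as well above background on at least 3 of 6 arrays. For each of 21477 genes the kept probe of highest mean was used. The genotype difference was fitted in R 4.3.3 with limma 3.58.1 (lmFit, eBayes), with Benjamini-Hochberg adjustment over all genes and a threshold of 0.05. Tables were read with fread (data.table, version 1.17.8), and figures use matplotlib 3.10.9. The fit was also run on simulated data of independent noise with known changes. These data hold no slide-row or tissue differences between arrays, so they do not check the fit against such differences. Of the listed genes, Aph1c was not on the array by name.

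The members, gene lists and alternatives were chosen with earlier results of these data known. Named are all members and, in each pathway list, up to 4 changed genes with the smallest p, or the one with the smallest p where none changed; markers named by gene are outside this rule. For the member with the largest difference, the 5 genes of most similar pattern were taken, 1 of which is not reported here. Alternatives were quantile or median scaling, normexp background correction (offset 50), other filters on dim probes, the mean of a gene's probes, a robust prior with an intensity trend, array weights, replicate or slide-row blocks, Xist signal as a covariate, the deposited table, a 2-fold minimum, and fits without single arrays or both first replicates. Promoter windows and symbols came from RefSeq (GRCm38.p6).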

Additional observations from a re-analysis of the deposited data

Results flagged for a closer look

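A second Notch1 probe, left out of the comparison because it was well above background on 2 of 6 arrays, gave a signal on 1 array that its neighbours did not show. Its signal was 5.27, 12.9 and 258 units on the 3 Nod1 -/- arrays, against 10.8, 30 and 6.55 units on the 3 Nod1 +/- arrays. The value of 258 belongs to Nod1 -/- replicate 3, which was also the highest Nod1 -/- array for the Notch1 probe that was used. The 2 arrays on which it stood well above background, Nod1 -/- replicate 3 and Nod1 +/- replicate 2, were of different genotypes.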

How the results depend on the processing

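Of 190 refits of single members, 177 kept their direction and side of the threshold, 11 missed it, 2 newly passed it and 0 turned direction. The 11 were 10 for Notch4 and 1 for Hey2, and the 2 were for Notch1. Each member had 1 kept probe. The mean of kept probes, the other filters on dim probes, the intensity trend and the replicate block left its difference unchanged. In these settings the direction could not turn, and only the p-value could move. The count of changed genes, 4015 as reported, was 2524 with median scaling, 1639 with no filter on dim probes, 6026 with array weights, 1034 when blocking on slide row, 2289 with Xist signal as a covariate, 639 without both first replicates, 1203 with a 2-fold minimum, and 1468 to 3390 with single arrays left out. Blocking on slide row sets only Nod1 -/- replicate 3 against the Nod1 +/- arrays. Unadjusted, 7652 genes had a p below 0.05. The count of changed members, 4 as reported, was 2 without both first replicates and 3 to 5 with single arrays left out. With a 2-fold minimum it was 3. The count of other pathway genes, 11 as reported, was 5 with no filter, 18 with an intensity trend and robust prior, 20 with array weights, 6 when blocking on slide row, 4 without both first replicates and 5 to 10 with single arrays left out. Replicate numbers occur in both genotypes. Deviations of same-numbered arrays correlated at 0.083, 0.277 and 0.111, and those of differently numbered arrays at -0.306 to 0.126. All same-numbered correlations were positive, but this does not settle whether same-numbered arrays are pairs. Whether same-numbered fetuses shared a litter is not stated, and the reported fit does not pair them. With the replicate number as a block, 4041 genes, 4 members and 12 pathway genes changed. Dim probes (Jag2, Dll4 and Hes1) limit the precision of their differences, and the Notch4 call was lost when any 1 array other than Nod1 +/- replicate 3 was left out.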
